A study of Mus musculus with 30 samples.

Results

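The change that accompanied resilience was compared between both main classes of projection neuron of the nucleus accumbens. For each gene the log2 change from Control to Resilient in D1 libraries had the same change in D2 libraries subtracted from it, and the result is called the class difference. A positive class difference means a higher change in D1, and genes whose D1 and D2 changes had opposite signs are described first. The contrast used 20 of the 30 libraries of the series, 5 each of D1 Control, D1 Resilient, D2 Control and D2 Resilient. It was tested for the 19368 of 55335 genes that passed a filter on low counts. D1 libraries came from D1-Cre-RT mice and D2 libraries from A2A-Cre-RT mice, where RT is RiboTag, a Cre-dependent allele that puts an HA tag on the ribosomal protein RPL22 in the cells that express Cre. All mice were female, and the Resilient ones had gone through chronic witness defeat stress (CWDS) and carry the label CWDS Resilient. Punches of the accumbens were taken 24 h after the social interaction test from all groups. Each library pooled 4 mice with like social interaction ratios, and 10 ng of HA-immunoprecipitated polyribosomal RNA entered it. A library is therefore a pool of animals, and p-values measure the spread between pools.

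Medium spiny neurons are the GABAergic output cells of the striatum. Those that express the D1 dopamine receptor carry dynorphin and substance P, and those that express the D2 and A2A receptors carry enkephalin. Both classes receive the same kinds of glutamatergic input, and in reward and stress behaviour they are often described as acting against each other. RiboTag isolates messenger RNA bound to tagged ribosomes, so a level here reflects both how much of a transcript a cell holds and how much of it sits on ribosomes. Ribosomal proteins and the nuclear-encoded subunits of the respiratory chain are made from short, abundant messenger RNAs. The first build the machinery of translation, and the second build the mitochondrial complexes that pass electrons to oxygen and make ATP.

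Libraries held 40504633 to 65882152 gene counts and 19925 to 22375 genes with a count. Levels are given as CPM, a gene's counts per 1e+06 counts of its library, with library sizes adjusted by TMM, which assumes that most genes do not differ. A class index was taken as the average log2 CPM over 7 marker genes of D2 neurons less that over 7 of D1 neurons. It was -0.72 to 0.45 in the 10 D1 libraries and 1.10 to 4.46 in the 10 D2 libraries, so the classes did not overlap on it. On D1 markers alone they did, at 6.57 in D2 Resilient replicate 5 and 6.49 in D1 Control replicate 1, as mean log2(CPM + 1). D2 markers were not low in D1 libraries. Group means of D1 and D2 markers were 6.78 and 6.48 in D1 Control and 6.81 and 6.61 in D1 Resilient. Drd1, the D1 receptor, was 380.2 to 569 CPM in D1 Control and 455 to 573 CPM in D1 Resilient, against 54.7 to 247 and 56.4 to 414 CPM in the D2 groups. Drd2, the D2 receptor, was 294 to 572 CPM in D2 Control and 205 to 498 CPM in D2 Resilient, against 49.8 to 125 and 64 to 106 CPM in the D1 groups. A few libraries stood apart from their groups. D1 Control replicate 1 was high in glial markers, D2 Resilient replicate 5 was low in them and had the D2 class index closest to D1, and D1 Resilient replicate 5 and D2 Control replicate 4 were the highest of their groups for ribosomal and respiratory genes. For the cytosolic ribosomal, respiratory, glial and mitochondrially encoded lists and some others, median class differences are given with and without these 4 libraries. No source used here states whether counting used the strand, so reads of overlapping and antisense genes cannot be told apart.

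By edgeR's quasi-likelihood test the class difference passed an adjusted p of 0.05 for 0 of 19368 genes, with a smallest adjusted p of 0.594. At an unadjusted p under 0.05 there were 967 genes (4.99% of those tested), 610 positive (3.15%) and 357 negative (1.84%). A threshold of 0.05 passes about this total share of genes where none differ. Of these 967 genes, 927 (95.9%) had opposite signs in the classes. A large class difference by its construction favours opposite signs, so this share describes the genes and tests nothing. Among them 589 were higher in Resilient than Control in D1 and lower in D2, and 338 had the reverse pattern. Over all genes tested 11070 (57.2%) had opposite signs, 5446 (28.1%) with the D1 change positive and 5624 (29%) with it negative. Among the 9170 genes with a mean of at least 10 CPM, 63.8% had opposite signs, and Spearman's rho between the D1 and D2 changes was -0.34. That correlation is across genes of the same 20 libraries, which are not independent replicates. Within a class no gene passed either (503 genes at an unadjusted p under 0.05 in D1, 2.6%, and 814 in D2, 4.2%, by edgeR). Both shares were below what a threshold of 0.05 passes where no gene differs. The D1 and D2 changes share no library. An unadjusted p under 0.05 in both classes was found for 51 genes of opposite sign, for 1 gene higher in both and for 3 genes lower in both. Of the 51, 42 (0.217% of genes tested) were higher in D1 Resilient and lower in D2 Resilient, and 9 (0.0465%) the reverse. The 51 became 26 without D1 Resilient replicate 5, 29 without D2 Control replicate 4, 31 without D2 Resilient replicate 1 and 32 without D1 Control replicate 3, and 20 without the 4 libraries that stood apart. Since tissue was processed in bulk, fewer cells of a type and less RNA per cell cannot be told apart for any gene below.

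**Figure D1:**
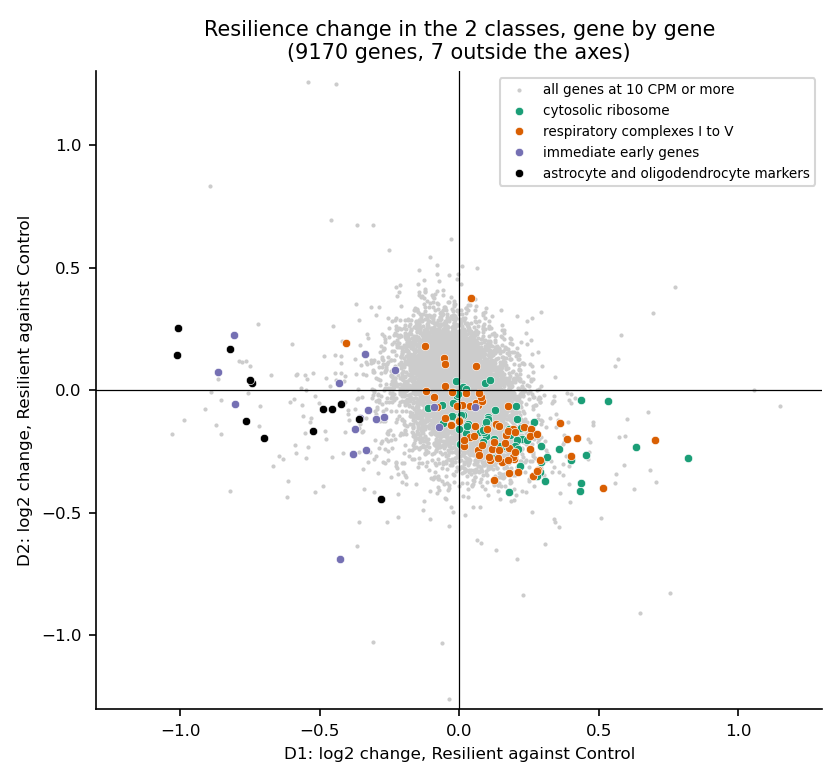
Each point is one of 9170 genes with a mean of at least 10 CPM, placed by its log2 change from Control to Resilient in D1 (x axis) and in D2 (y axis); 7 genes lie outside the axes. Genes of the cytosolic ribosome and of respiratory complexes I to V lie mostly at the lower right, where the D1 change is positive and the D2 change negative, and immediate early genes lie mostly to the left of 0.

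The 42 genes that were higher in D1 Resilient and lower in D2 Resilient held 8 genes of the cytosolic ribosome and 5 subunits of the respiratory chain. They were Rpl23a, Rpl36, Rpl19, Rps15, Rpl37a, Rps21, Rpl41 and Rps12, and Atp5j2, Cox5b, Atp5g2, Ndufs6 and Ndufa7. These and the other genes of the 42 named here outside the naming rule were chosen after their values were seen. The ribosome, complex I and complexes II to V lists held 78, 36 and 37 of the 19368 genes tested. A further 11 of the 42 were annotated as pseudogenes, such as Rps26-ps1 and Rps23-ps1, and the share of pseudogenes among all genes tested was not counted. Median exonic length was 1115 bases for the 42, 4228 for the 9 genes of the reverse pattern and 3644 for all genes tested. Processed pseudogenes are near copies of their parent messenger RNA, so reads may have been divided between parent and copy, and values of ribosomal protein genes and their pseudogenes are uncertain to that extent. The other members included Tomm7, a part of the outer membrane import pore, Romo1, a small inner membrane protein of mitochondria, Bax, a regulator of cell death at the mitochondrion, Rbfox3, the NeuN splicing factor of neurons, and Vamp2. The 9 genes of the reverse pattern were Pcdh20, Snrnp40, Clk1, Fam25c, Clip1, Cldn12, Acsl3, Ugp2 and Gm43148. Fam25c and Gm43148 had means of 0 CPM in D1 Resilient and D2 Control and at most 0.104 and 0.0740 CPM in the other groups, near the 0.0455 to 0.0741 CPM that 3 counts make.

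Cytosolic ribosomal proteins had a median change of 0.12 in D1 and -0.17 in D2 on the log2 scale, a median class difference of 0.28 over 78 genes, where all genes tested had -0.01. In 58 of the 78 the D1 change was positive and the D2 change negative, and in 3 the reverse (28.1% and 29% of all genes). At an unadjusted p under 0.05 there were 31 of 78 with a positive class difference and 0 with a negative one, beside 3.15% and 1.84% of all genes. None of the 31 passed the edgeR adjusted p. Their class differences were 0.34 to 1.10. Rpl24 had the lowest of the 78, at -1.10. The list was known from earlier results on these data to differ between the classes, so its count is a description and not independent evidence.

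Rps29, a protein of the small ribosomal subunit (ENSMUSG00000034892, chromosome 12, 69157722 to 69159186, GRCm38), had the smallest p for the class difference. It was 44.5, 38.4, 35.2, 40.2 and 50.4 CPM in D1 Control replicates 1 to 5 and 71.3, 79.9, 71.5, 69.9 and 76.2 CPM in D1 Resilient. In D2 it was 71.2, 89.1, 94.2, 111 and 81.7 CPM in Control and 52, 73.7, 102, 73.7 and 67.1 CPM in Resilient. Every D1 Resilient library lay above every D1 Control library, and in D2 the groups overlapped, with Resilient replicate 3 above 4 of the 5 Control libraries. The log2 changes were 0.82 in D1 and -0.28 in D2, a class difference of 1.10 (SE 0.23, edgeR adjusted p 0.594).

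Rps28 (ENSMUSG00000067288, chromosome 17, 33819027 to 33824562), also of the small subunit, was 31.1, 30.4, 26.3, 24.6 and 28.2 CPM in D1 Control and 39.8, 45.5, 41.8, 45.5 and 45.4 CPM in D1 Resilient. D2 Control libraries held 42.4, 51.1, 55.1, 69.2 and 40.8 CPM and D2 Resilient libraries 41.1, 43.5, 52.8, 44.6 and 38.2 CPM. The D1 groups did not overlap and the D2 groups did, and the class difference was 0.86 (SE 0.20, edgeR adjusted p 0.594). Rpl38 and Rpl23a belong to the large subunit. Rpl38 ranged over 40.5 to 52.7 CPM in Control and 56.1 to 71.3 CPM in Resilient libraries of D1, and over 65.5 to 96 and 56.9 to 79.3 CPM in those of D2, a class difference of 0.72 (SE 0.20). For Rpl23a the ranges in the same order were 38 to 41.3, 42.5 to 51.5, 47.7 to 56.6 and 41.4 to 49.9 CPM, with a class difference of 0.42 (SE 0.11). Both genes separated the D1 groups and not the D2 groups. The level of Rps29 in D1 Resilient, at 73.8 ± 4.19 CPM (SD, n = 5), was near that of D2 Resilient, at 73.7 ± 18.2 CPM, whereas D1 Control at 41.7 ± 5.88 CPM lay below D2 Control at 89.4 ± 14.8 CPM.

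The start sites of these genes are shown because many messenger RNAs of the translation machinery begin with a cytosine and a run of pyrimidines, a feature known as a 5′ terminal oligopyrimidine tract, through which growth signals set their translation. The sequences below are from RefSeq on GRCm38.p6, 60 bases on the coding strand with the annotated start at base 31, and capitals mark a run at that start of C followed by at least 4 bases that are each C or T. Rpl38, Rpl28, Rplp2 and Rps21 hold such a run (Rps21 at the start shown and not at its other annotated start), and Rps28, Atp5k and Ndufa3 are shown as genes of like class difference without one. The ribosomal protein genes Rpl19, Rps15, Rpl37, Rpl37a, Rpl41 and Rps12, whose sequences are not printed, also held no such run. Of these, Rpl19, Rps15, Rpl37a, Rpl41 and Rps12 were among the 42 genes higher in D1 Resilient and lower in D2 Resilient.
Rpl38, chr11:114668550-114668609, plus strand: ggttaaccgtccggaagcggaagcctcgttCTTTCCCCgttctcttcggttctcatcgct
Rpl28, chr7:4792935-4792994, plus strand: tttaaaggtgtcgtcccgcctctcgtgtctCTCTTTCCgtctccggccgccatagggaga
Rplp2, chr7:141447621-141447680, plus strand: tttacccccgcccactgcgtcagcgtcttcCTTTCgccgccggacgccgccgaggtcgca
Rps21, chr2:180257349-180257408, plus strand: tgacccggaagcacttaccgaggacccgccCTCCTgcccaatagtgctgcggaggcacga
Rps28, chr17:33824533-33824592, minus strand: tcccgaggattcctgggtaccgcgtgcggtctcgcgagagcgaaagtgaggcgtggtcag
Atp5k, chr5:108434370-108434429, minus strand: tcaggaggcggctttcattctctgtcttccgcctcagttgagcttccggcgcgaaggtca
Ndufa3, chr7:3617343-3617402, plus strand: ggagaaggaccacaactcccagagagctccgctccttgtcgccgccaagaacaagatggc
Of the 78 listed ribosomal protein genes 57 matched the RefSeq windows by symbol, and 14 of them (24.6%) held the run at an annotated start. It was present in 9 of the 21 matched genes with a positive class difference at an unadjusted p under 0.05, in 4 of 64 respiratory subunit genes (6.25%) and in 813 of all 27025 genes with a window (3.01%). Annotated starts can lie a few bases from the base used most, so the absence of a run says only that these letters do not stand at that base. Within 10 bases of a start, a run was found in 34 of the 57 ribosomal protein genes (59.6%) and 15 of the 21. The same count gave 23 of the 64 respiratory subunit genes (35.9%) and 9598 of all 27025 genes (35.5%).

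Complex I of the respiratory chain, which takes electrons from NADH, had a median change of 0.13 in D1 and -0.16 in D2, a median class difference of 0.32 over 36 subunits. The D1 change was positive and the D2 change negative in 30 of the 36 (28.1% of all genes). At an unadjusted p under 0.05, 19 of 36 had a positive class difference and 1 a negative one (3.15% and 1.84% of all genes). Complexes II to V, from succinate dehydrogenase to the ATP synthase, had medians of 0.11 in D1 and -0.21 in D2, a class difference of 0.33 over 37 subunits. Of these, 28 were higher in D1 Resilient and lower in D2 Resilient, and 17 were positive at an unadjusted p under 0.05 with 0 negative. No subunit passed the edgeR adjusted p. As with the ribosome, these lists were chosen with their behaviour in these data known.

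Levels over whole lists show the same pattern library by library. The mean log2(CPM + 1) of complexes II to V was 7.24, 7.27, 7.21, 7.21 and 7.26 in D1 Control replicates 1 to 5 and 7.29, 7.37, 7.30, 7.33 and 7.50 in D1 Resilient. It was 7.46, 7.42, 7.47, 7.58 and 7.47 in D2 Control and 7.23, 7.35, 7.41, 7.30 and 7.30 in D2 Resilient. In D1 every Resilient library lay above every Control library, by a narrow margin (7.29 against 7.27 at the closest). In D2 every Resilient library lay below every Control library, also narrowly (7.41 against 7.42 at the closest). D1 Resilient and D2 Resilient libraries overlapped. For complex I the D1 groups were 6.59 to 6.68 and 6.69 to 6.94, without overlap. Its D2 groups were 6.82 to 7.01 in Control and 6.66 to 6.82 in Resilient, where only the highest Resilient library exceeded the lowest Control library. The cytosolic ribosome had 6.40 to 6.58 in D1 Control and 6.49 to 6.81 in D1 Resilient, and 6.67 to 7.02 and 6.60 to 6.76 in D2, with overlap in both classes. Between the classes, the median log2 gap of D1 minus D2 was -0.30 in Control and 0.05 in Resilient for complexes II to V. It was -0.31 and 0.01 for complex I, and -0.35 and -0.04 for the ribosome. By these medians D1 stood below D2 in Control mice, and the gap in Resilient mice was within 0.05 of 0. Without the 4 libraries that stood apart the median class differences were 0.17 for complex I, 0.24 for complexes II to V and 0.19 for the ribosome.

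**Figure D2:**
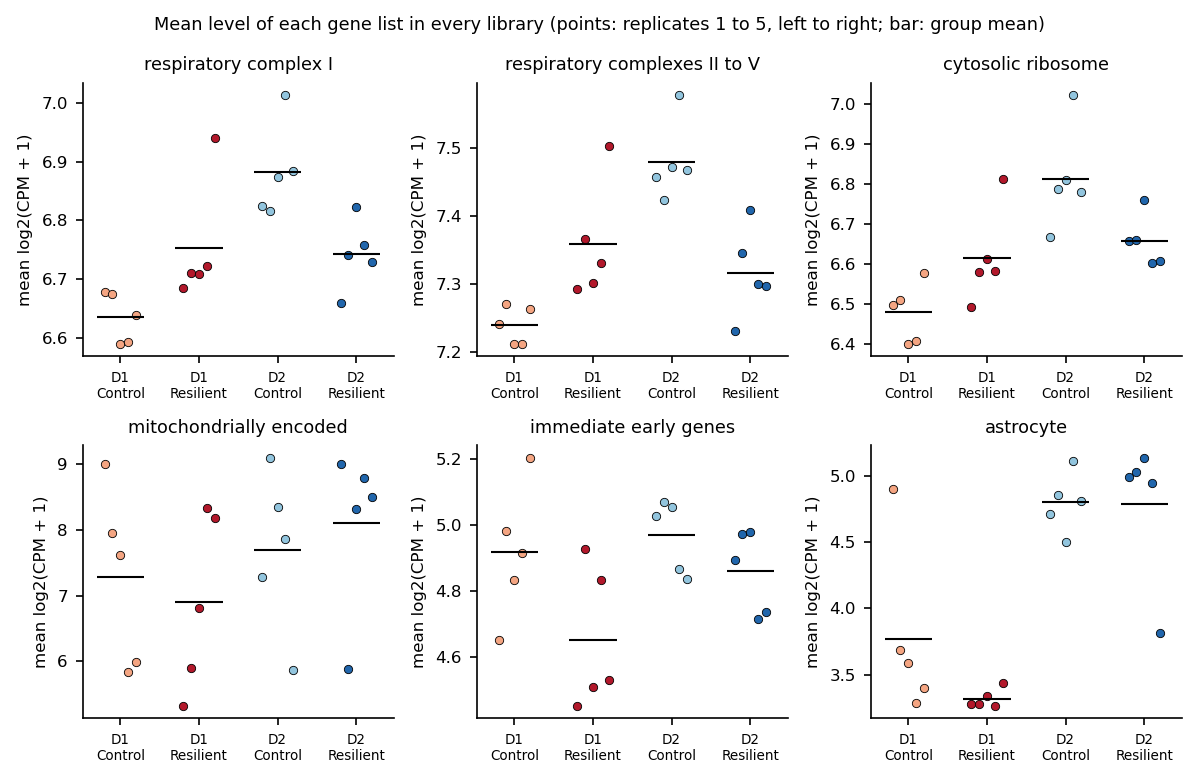
Each point is a library, placed by group (x axis) and by the mean log2(CPM + 1) of a gene list (y axis, which does not start at 0); bars are group means of 5 libraries. Respiratory complexes II to V separate Resilient from Control by narrow margins in both classes, in opposite directions. Mitochondrially encoded genes spread over more than 3 log2 units within a group, and D1 Control replicate 1 and D2 Resilient replicate 5 stand apart for astrocyte markers.

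Among single subunits, Atp5k, the e subunit in the membrane part of the ATP synthase (ENSMUSG00000050856, chromosome 5, 108433244 to 108434448), was 54.6, 44.9, 52.9, 47.3 and 60.4 CPM in D1 Control and 81.8, 91.6, 83.3, 78.5 and 87.7 CPM in D1 Resilient. D2 Control libraries held 69.6, 100.3, 101, 94.9 and 95.6 CPM and D2 Resilient libraries 74.8, 81.8, 106, 65.8 and 73 CPM. The D1 groups lay far apart and the D2 groups overlapped. D2 Control replicate 1 was the lowest of its group and lay among the Resilient libraries, and D2 Resilient replicate 3 lay above every D2 Control library. The log2 changes were 0.70 in D1 and -0.20 in D2, a class difference of 0.90 (SE 0.23, edgeR adjusted p 0.621). Ndufs6, an accessory subunit of complex I (ENSMUSG00000021606, chromosome 13, 73319838 to 73328542), was 56, 58.9, 51.6, 53.7 and 59.3 CPM in D1 Control and 61.8, 67.5, 67.7, 67.5 and 69.2 CPM in D1 Resilient. In D2 the values were 76, 68.6, 71.7, 81.6 and 71.4 CPM for Control and 55.7, 65.1, 74.8, 60.2 and 68.2 CPM for Resilient. Here the D1 groups did not overlap, and in D2 Resilient replicate 3 lay among the Control libraries (class difference 0.44, SE 0.12, edgeR adjusted p 0.621). Ndufa3, Ndufa1 and Ndufa7, accessory subunits too, had class differences of 0.62 (SE 0.16), 0.58 (SE 0.17) and 0.48 (SE 0.13). In complex IV, cytochrome c oxidase, Cox5b was 194 to 228 CPM in Control and 244 to 305 CPM in Resilient libraries of D1, and 269 to 337 and 233 to 292 CPM in those of D2. Its class difference was 0.46 (SE 0.12), beside 0.46 (SE 0.12) for Cox6b1 and 0.67 (SE 0.20) for Cox7c of the same complex. Atp5j2 and Atp5l, the f and g subunits of the ATP synthase, had 0.61 (SE 0.15) and 0.57 (SE 0.21). The subunit with a negative class difference at an unadjusted p under 0.05 was Ndufb2 of complex I, at means of 14 CPM in D1 Control, 10.6 in D1 Resilient, 9.15 in D2 Control and 10.5 in D2 Resilient, a class difference of -0.60 (SE 0.22). By sign alone, 2 subunits of complex I and 3 of complexes II to V were lower in D1 Resilient and higher in D2 Resilient (29% of all genes).

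Mitochondrial ribosomal proteins, which are nuclear genes, had the same signs with smaller medians. Their median change was 0.06 in D1 and -0.05 in D2, 41 of 74 were higher in D1 Resilient and lower in D2 Resilient, and 11 were positive and 1 negative at an unadjusted p under 0.05. Over all genes these shares were 28.1%, 3.15% and 1.84%. The median class difference was 0.12, and 0.06 with the length trend removed. At an unadjusted p under 0.05, 8 were then positive and 4 negative (4.55% and 4.77% of all genes). Mrpl23 had a class difference of 0.55 (SE 0.17), Mrpl43 of 0.43 (SE 0.14), Mrpl52 of 0.57 (SE 0.22) and Mrps28 of 0.40 (SE 0.16). For Mrpl23 and Mrpl43 every D2 Resilient library lay below every D2 Control library, and the D1 groups overlapped. Timm17b, a subunit of the translocase that imports proteins across the inner mitochondrial membrane (ENSMUSG00000031158, chromosome X, 7899357 to 7908351), was 16.3, 15.9, 15.9, 14.9 and 14.6 CPM in D1 Control and 16.1, 19.98, 17.2, 17.6 and 18 CPM in D1 Resilient. Its D2 levels were 19.9, 17.3, 21.1, 21 and 18.4 CPM in Control and 15, 14.7, 15, 15.2 and 14 CPM in Resilient. The D2 groups did not overlap, the D1 groups did by 1 library, and the class difference was 0.60 (SE 0.15, edgeR adjusted p 0.6).

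The 13 protein genes that mitochondria themselves encode went the other way in their medians, -0.29 in D1 and 0.23 in D2. The D1 change was negative and the D2 change positive in 9 of 13 (29% of all genes). The median class difference was -0.50, and 0 of 13 had an unadjusted p under 0.05. Their libraries were widely scattered, with a mean log2(CPM + 1) of 9.001, 7.95, 7.62, 5.83 and 5.99 in D1 Control and 5.32, 5.90, 6.81, 8.33 and 8.18 in D1 Resilient. In D2 it was 7.29, 9.10, 8.35, 7.86 and 5.87 in Control and 9.004, 5.88, 8.32, 8.79 and 8.51 in Resilient. All 4 groups overlapped. The median was -0.04 without D1 Control replicate 1 and reversed to 0.42 under voom, which weights libraries by their quality.

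Outside these lists, Vamp2, the synaptobrevin of synaptic vesicles and a core part of the machinery of transmitter release (ENSMUSG00000020894, chromosome 11, 69088490 to 69092384), separated the groups in both classes. It was 1209, 1286, 1267, 1229 and 1196 CPM in D1 Control and 1327, 1394, 1349, 1437 and 1343 CPM in D1 Resilient. In D2 it was 1265, 1239, 1211, 1346 and 1189.9 CPM in Control and 1079.6, 1158, 1141, 1107 and 1089 CPM in Resilient. D1 Resilient libraries all lay above D1 Control and D2 Resilient libraries all below D2 Control, with log2 changes of 0.15 and -0.17. The class difference was 0.31 (SE 0.08, edgeR adjusted p 0.621). Of the 19368 genes, 2 (0.0103%) separated in this way, the other being Polr2m, a protein that binds RNA polymerase II. Its ranges were 134 to 139, 144 to 155, 135 to 152 and 123 to 135 CPM in D1 Control, D1 Resilient, D2 Control and D2 Resilient. Another 2 genes (0.0103%) separated in the reverse directions, Clk1 and Zfp433, and 0 genes separated in the same direction in both classes. For single classes the D1 groups did not overlap for 299 genes (1.54%) and the D2 groups for 253 (1.31%). Whether more genes separated in both classes than these shares alone would give was not tested. Separation in both classes is therefore only a description of these genes. Polr2m and Zfp433 are named here because of this separation, after their values were seen.

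Pdzd4, which encodes a protein with a PDZ domain (ENSMUSG00000002006, chromosome X, 73793359 to 73824969), was 179, 188, 176, 168 and 172 CPM in D1 Control and 213, 217, 212, 214 and 205 CPM in D1 Resilient. D2 values were 208, 233, 220.5, 254 and 194 CPM in Control and 167, 193, 209, 184 and 186 CPM in Resilient. The D1 groups did not overlap, the D2 groups did, and the class difference was 0.50 (SE 0.11, edgeR adjusted p 0.594). Pick1, a PDZ protein that binds AMPA receptor subunits and regulates their trafficking, had log2 changes of 0.37 in D1 and -0.35 in D2 and a class difference of 0.72 (SE 0.18). Jakmip1, a microtubule-associated protein of neurons, had a class difference of 0.90 (SE 0.31), and its D1 groups did not overlap, at 14.6 to 19.2 CPM in Control and 22.2 to 26.8 CPM in Resilient.

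**Figure D3:**
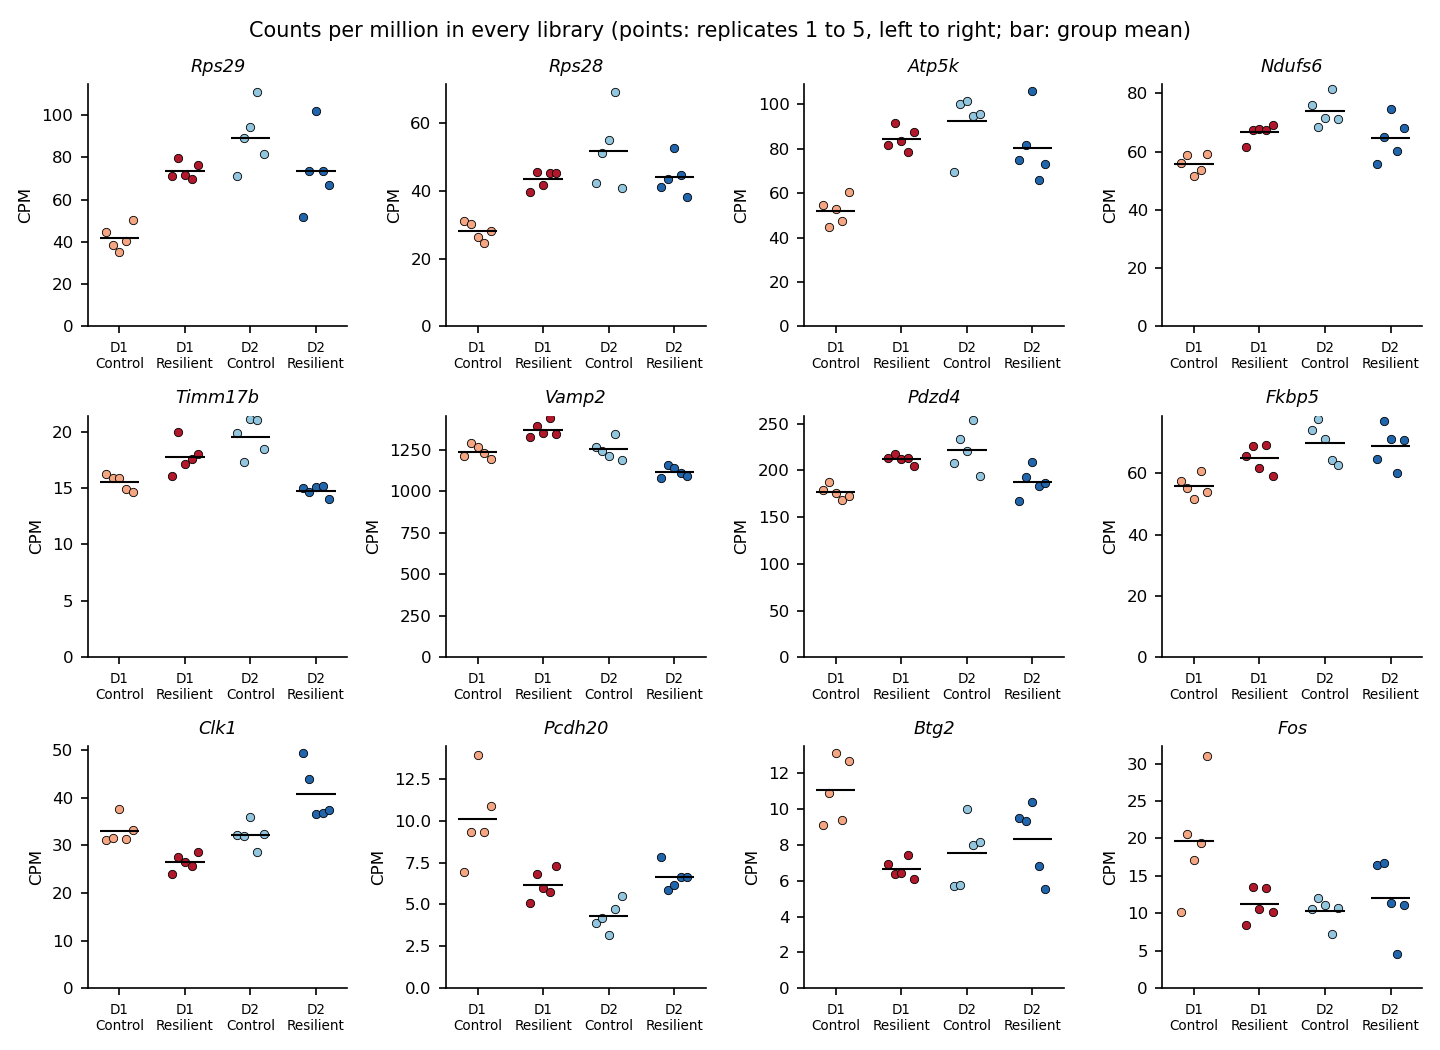
Each point is a library, placed by group (x axis) and level in CPM (y axis, from 0); bars are means of 5 libraries. Rps29, Rps28, Atp5k and Pdzd4 were higher in all 5 D1 Resilient than in all 5 D1 Control libraries, Clk1 was lower in D1 Resilient and higher in D2 Resilient than in every Control library of the class, and Fos and Btg2 were lower in D1 Resilient with overlapping D2 groups.

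In the reverse direction, lower in D1 Resilient and higher in D2 Resilient, Clk1 had groups that separated in both classes. It encodes a kinase that phosphorylates splicing factors of the SR family (ENSMUSG00000026034, chromosome 1, 58410189 to 58424066). Levels were 31.1, 31.5, 37.7, 31.3 and 33.2 CPM in D1 Control and 23.9, 27.6, 26.4, 25.7 and 28.6 CPM in D1 Resilient. D2 Control libraries held 32.1, 31.9, 36, 28.7 and 32.4 CPM and D2 Resilient libraries 49.5, 43.8, 36.5, 36.8 and 37.3 CPM. D2 Resilient replicate 3 exceeded D2 Control replicate 3 by the smallest margin, and the class difference was -0.66 (SE 0.17, edgeR adjusted p 0.621). Zfp433, a zinc finger gene of low level, was 0.301 to 0.801 CPM in Control and 0.0369 to 0.232 CPM in Resilient libraries of D1, and 0 to 0.145 and 0.224 to 0.437 CPM in those of D2. Where a library had 0 counts the upper limit that 3 counts allow was 0.0455 to 0.0741 CPM, so no fold is given for it.

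Pcdh20, a protocadherin of the cell surface (ENSMUSG00000050505, chromosome 14, 88464743 to 88471396), was 6.96, 9.35, 13.9, 9.33 and 10.9 CPM in D1 Control and 5.12, 6.81, 5.98, 5.77 and 7.28 CPM in D1 Resilient. In D2 it was 3.92, 4.2, 3.2, 4.73 and 5.52 CPM in Control and 7.83, 5.84, 6.14, 6.63 and 6.64 CPM in Resilient. The D2 groups did not overlap and the D1 groups overlapped by D1 Resilient replicate 5, which lay above D1 Control replicate 1. D1 Control stood above D2 Control, and the Resilient groups met at a like level (class difference -1.32, SE 0.31, edgeR adjusted p 0.594). Taf1b, a part of the factor that starts transcription of ribosomal RNA by RNA polymerase I, had log2 changes of -0.22 and 0.40 and a class difference of -0.62 (SE 0.18). Ogt, the enzyme that attaches O-linked N-acetylglucosamine to proteins, had -0.13 and 0.19, a class difference of -0.32 (SE 0.10). For both, all D2 Resilient libraries lay above all D2 Control libraries and the D1 groups overlapped. Chd1, a chromatin remodeller, had changes of -0.04 in D1 and 0.47 in D2 (class difference -0.50, SE 0.16). Mfn1, a GTPase that fuses mitochondria, was 37.5 to 43.5 CPM in D1 Control and 35 to 36.4 in D1 Resilient without overlap, and its class difference was -0.33 (SE 0.10). The others named by the rule were Clip1, which caps growing microtubules, at -0.48 (SE 0.14), Trpm7, an ion channel with a kinase domain, at -0.64 (SE 0.19), the claudin Cldn12 at -0.35 (SE 0.11) and Ints10 of the Integrator complex at -0.42 (SE 0.13).

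Immediate early genes, which neurons switch on within minutes of activity, had a median change of -0.34 in D1 and -0.11 in D2 over 23 genes. Their pattern was mainly a lower level in D1 Resilient. Of the 23, 13 were lower in both classes (23.2% of all genes) and 7 lower in D1 and higher in D2 (29% of all genes). At an unadjusted p under 0.05, 6 of 23 had a negative class difference, namely Btg2, Fos, Dusp6, Nr4a1, Arc and Dusp1, and 1, Jund, a positive one (1.84% and 3.15% of all genes). Fos, the transcription factor used most as a mark of recent activity, was 10.2, 20.6, 17.1, 19.5 and 31 CPM in D1 Control and 8.51, 13.5, 10.6, 13.4 and 10.2 CPM in D1 Resilient. In D2 it was 10.6, 12, 11.1, 7.24 and 10.7 CPM in Control and 16.5, 16.8, 11.4, 4.56 and 11.2 CPM in Resilient. D1 Control replicate 5 was the highest and replicate 1 lay among the Resilient libraries, and the class difference was -1.03 (SE 0.38, edgeR adjusted p 0.85). Btg2, a growth-restraining gene induced by activity, was 9.08 to 13.1 CPM in D1 Control and 6.11 to 7.42 in D1 Resilient without overlap, and 5.71 to 10.02 and 5.51 to 10.4 CPM in D2 Control and Resilient (class difference -0.87, SE 0.28). Arc, which regulates AMPA receptor removal at synapses, had means of 66.5 and 36.5 CPM in D1 Control and Resilient and 45.1 and 47.4 CPM in D2 (class difference -0.94, SE 0.39). Nr4a1, a nuclear receptor, had 109 and 62.2 CPM in D1 and 92.2 and 88.5 CPM in D2 (class difference -0.74, SE 0.30). The phosphatase genes Dusp6 and Dusp1, which restrain MAP kinases, had class differences of -0.46 (SE 0.18) and -0.49 (SE 0.21).

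Glucocorticoid target genes had medians of 0.04 in D1 and -0.07 in D2, with 2 of 15 positive and 0 negative at an unadjusted p under 0.05 (3.15% and 1.84% of all genes). The median class difference of 0.16 was 0.03 without D2 Resilient replicate 1, 0.07 with the length trend removed and -8.4e-05 without the 4 libraries that stood apart. Fkbp5, a co-chaperone of the glucocorticoid receptor (ENSMUSG00000024222, chromosome 17, 28399094 to 28517527), was 57.4, 55.3, 51.7, 60.7 and 54 CPM in D1 Control and 65.6, 69, 61.8, 69.4 and 59 CPM in D1 Resilient. Its D2 groups were 62.7 to 77.6 and 60.3 to 77.1 CPM and overlapped. The class difference was 0.24 (SE 0.11, edgeR adjusted p 0.944), and it lay in the D1 change of 0.22, since the D2 change was -0.02. Mt1, a metallothionein, had log2 changes of 0.29 and -0.32 and a class difference of 0.61 (SE 0.22), with D2 Control replicate 4 at 101 CPM above a group that otherwise reached 74.2 CPM. Heat shock and unfolded protein response genes leaned the other way, at -0.09 and 0.06, with 16 of 30 lower in D1 Resilient and higher in D2 Resilient (29% of all genes). Hspa5, the main chaperone of the endoplasmic reticulum, had a class difference of -0.34 (SE 0.14) and Pdia3, a disulfide isomerase there, of -0.30 (SE 0.14), the 2 of 30 negative at an unadjusted p under 0.05 (1.84% of all genes). Among 21 cholesterol synthesis genes, 11 were lower in D1 Resilient and higher in D2 Resilient (29% of all genes), and Hmgcs1 had a class difference of -0.27 (SE 0.13).

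Synaptic genes showed no common direction, and members of a list differed among themselves. For ionotropic glutamate receptors the median class difference was -0.06 over 25 genes, and it turned to 0.09 without the 4 libraries that stood apart and 0.02 without D2 Control replicate 4 alone. Grik5, a kainate receptor subunit, and Grin2d, an NMDA receptor subunit, were positive at 0.52 (SE 0.19) and 0.88 (SE 0.39), and Gria3, an AMPA receptor subunit, negative at -0.34 (SE 0.12). Grin2d was low, at 1.64 to 2.9 CPM in D2 Control and 0.742 to 1.59 CPM in D2 Resilient, where the groups did not overlap. In the synaptic vesicle list 3 of 33 genes were positive and 0 negative at an unadjusted p under 0.05, where all genes had 3.15% and 1.84%, the shares to set beside the counts that follow. They were Vamp2, Cplx1, a complexin that clamps release, at 0.26 (SE 0.11), and Sv2a, a vesicle glycoprotein, at 0.20 (SE 0.09). For Cplx1 the difference lay in D2, where Control was 409.9 to 455 CPM and Resilient 319 to 404 CPM without overlap, and the D1 change was 0.04. Postsynaptic scaffold genes Dlg4 and Dlgap4 were positive at 0.26 (SE 0.10) and 0.25 (SE 0.10), 2 of 24. Granins and peptide processing genes split, with Scg3 at -0.34 (SE 0.14) and Scg2 at -0.36 (SE 0.16) against Pcsk1n, an inhibitor of prohormone cleavage, at 0.43 (SE 0.19). In dopamine and cAMP signalling Rgs2, which shortens G-protein signals, and Rapgef4, an exchange factor that cAMP opens, were negative at -0.38 (SE 0.14) and -0.30 (SE 0.13), 2 of 31. Axon guidance gave Robo2, a Slit receptor, at -0.39 (SE 0.13) and Sema3e, a secreted semaphorin, at -0.44 (SE 0.18). In the cadherin and neurexin list Cdh10 and Cdh8 were negative at -0.50 (SE 0.21) and -0.37 (SE 0.18) and the latrophilin Adgrl1 positive at 0.26 (SE 0.11). None of these genes passed the edgeR adjusted p.

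Chromatin genes included Chd9, a remodeller that was lower in both classes and more so in D2, at changes of -0.31 and -1.02 and a class difference of 0.71 (SE 0.28). It was 92.2, 66, 84.1, 104 and 71.2 CPM in D2 Control and 49.5, 43.5, 38.3, 39.2 and 34.8 CPM in D2 Resilient, without overlap. Its relative Chd3 had a class difference of 0.27 (SE 0.10). In the circadian list Dbp, an output factor of the clock, was positive at 0.38 (SE 0.16) and Cry1, a repressor of the clock, negative at -0.34 (SE 0.13). Single members at an unadjusted p under 0.05 were Mapk3, a MAP kinase of the neurotrophin list (0.28, SE 0.13), Eif4h among translation factors (0.23, SE 0.11) and Itgav among matrix genes and integrins (-0.39, SE 0.19). Actb and Arhgap21 of the actin list stood in opposite directions at 0.19 (SE 0.09) and -0.24 (SE 0.11). Proteasome genes had medians of -0.02 in both classes, and translation factors had a median class difference of 0.02, which turned to -0.02 without the 4 libraries that stood apart. Psmb6 and Psmb5, catalytic-core subunits of the proteasome, were positive at 0.32 (SE 0.12) and 0.39 (SE 0.16), while Psmc6 of the regulatory particle was -0.28 (SE 0.13). Sodium and calcium channels, glycolysis genes and receptors for oestrogen, progesterone and androgen had 0 members at an unadjusted p under 0.05 in either direction.

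**Figure D4:**
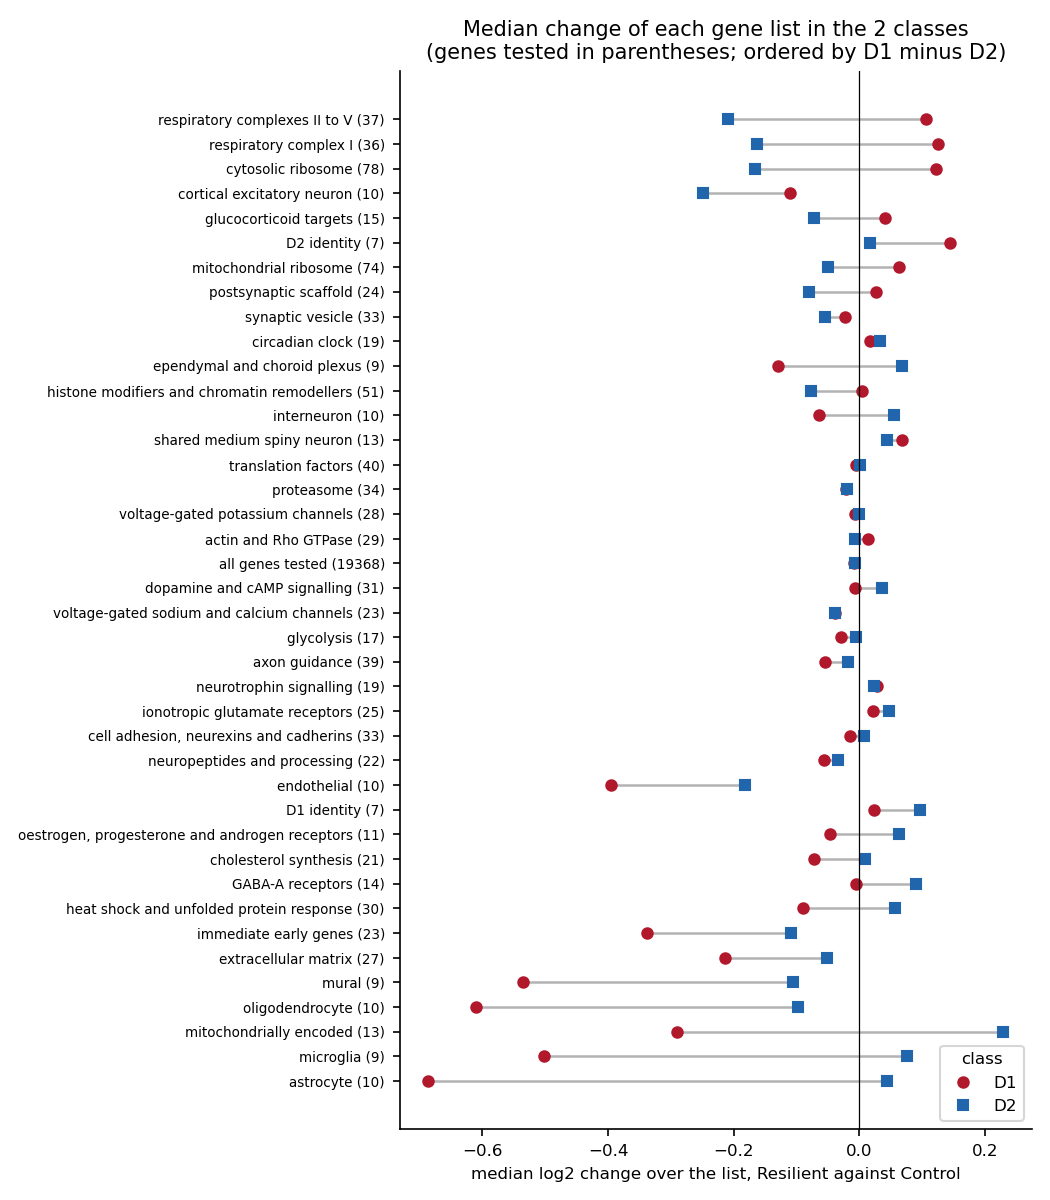
For each gene list (y axis, with the number of genes tested) the median log2 change from Control to Resilient is shown for D1 (circles) and D2 (squares) on the x axis. Respiratory and ribosomal lists stand with D1 above 0 and D2 below 0, glial and vascular lists have D1 medians of -0.40 to -0.69, and the synaptic and ion channel lists lie within 0.1 of 0 in both classes.

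Markers of glia had lower medians in D1 Resilient than in D1 Control, and medians nearer 0 in D2. Astrocyte markers had a median change of -0.69 in D1 and 0.04 in D2. Of 10 genes, 4 had a negative class difference at an unadjusted p under 0.05 and 0 a positive one (1.84% and 3.15% of all genes). They were Aqp4, the water channel of astrocyte endfeet (-1.42, SE 0.52), Gfap (-1.26, SE 0.54), the gap junction gene Gja1 (-1.16, SE 0.51) and the glutamate transporter Slc1a3 (-0.99, SE 0.47). The summed level of the 10 markers was 372 to 849 CPM in Control and 303 to 393 CPM in Resilient libraries of D1, and 530.5 to 823 and 345 to 784 CPM in those of D2. D1 Control replicate 1 held the highest value of its group and D2 Resilient replicate 5 the lowest of its own. Gja1, for example, was 36.3, 10.8, 10.3, 7.85 and 9.86 CPM in D1 Control and 51.9, 42.8, 43.2, 43.4 and 14.1 CPM in D2 Resilient. Without D1 Control replicate 1 the median class difference of astrocyte markers was -0.23, against -0.68 with it. Without the 4 libraries that stood apart it was -0.45.

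Oligodendrocyte markers had medians of -0.61 and -0.10 and a median class difference of -0.46. It was -0.16 without D1 Control replicate 1 and -0.61 without the 4 libraries that stood apart. At an unadjusted p under 0.05, 1 of 10 was negative (1.84% of all genes), the myelin gene Mal at -0.77 (SE 0.33). Sums of the oligodendrocyte markers were 539 to 1102, 405 to 577, 691 to 1475 and 467 to 1194 CPM in D1 Control, D1 Resilient, D2 Control and D2 Resilient. Microglia markers had -0.50 and 0.08 and a median class difference of -0.62. It was -0.0027 without D1 Control replicate 1 and -0.53 without the 4 libraries that stood apart. Endothelial markers had medians of -0.40 and -0.18, with 9 of 10 lower in both classes (23.2% of all genes). Their median class difference of -0.07 turned to 0.06 without D1 Control replicate 1 and 0.06 under voom. The mural list had -0.54 and -0.11. The endothelial and mural lists each had 1 member at an unadjusted p under 0.05, Emcn at -1.20 (SE 0.50) and the channel regulator Abcc9 at -1.66 (SE 0.72). Sums of the 10 endothelial markers were 18.7 to 41.5 and 19.3 to 22.7 CPM in D1 and 197 to 362 and 86.5 to 278 CPM in D2. Without D1 Control replicate 1 the median class differences of the ribosome, complex I and complexes II to V were 0.32, 0.32 and 0.34. Without the 4 libraries that stood apart they were 0.19, 0.17 and 0.24. Whether other cell types carried part of the remaining differences was not tested.

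Some genes with large class differences rested on 1 or a few libraries. Slc30a1, a zinc exporter with a class difference of 7.61 (SE 1.69), was 1.01, 1.1, 52.5, 33.3 and 1.07 CPM in D1 Resilient and 0.923, 0.887, 65.6, 0.841 and 0.961 CPM in D2 Control, and at most 1.48 CPM in every library of D1 Control and D2 Resilient. Jund, of the AP-1 family, was 3.34, 152, 2.48, 12.7 and 3.53 CPM in D1 Resilient and at most 5.54 CPM in the other 3 groups, with replicates 2 and 4 far above the rest. Psmd10 of the proteasome regulatory particle reached 26.5 CPM in D1 Control replicate 5 and was at most 2.85 CPM in the other 19 libraries. Snrnp40, a splicing factor, was 12.2, 4.24, 2.33, 0.78 and 4.24 CPM in D2 Resilient and 1.43, 0.885, 5.92, 0.517 and 0.558 CPM in D1 Control. DESeq2 called 7 genes (0.0361%), which were Slc30a1, Snrnp40, Pkp1, Btc, Rps29, Gm6361 and Gm15501. Pkp1 and Btc were at most 0.525 and 0.415 CPM in any of the 20 libraries.

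The class difference was also related to gene length. Among the genes with at least 10 CPM, the median class difference was 0.27 for the 240 with less than 1000 exonic bases, 0.17 for 788 of 1000 to under 2000 bases, 0.04 for 2461 of 2000 to under 4000, -0.02 for 3630 of 4000 to under 8000 and -0.07 for 2050 of 8000 or more. In the shortest group the D1 median was 0.10 and the D2 median -0.16, so short genes as a whole had the signs of the ribosomal and respiratory lists. Genes outside those lists had 0.25 in the shortest group and -0.07 in the longest, and members of the lists 0.43, 0.35, 0.21 and 0.23 in the first 4 groups. In each of these 4 groups the list members lay above the other genes, whose medians in the next 3 groups were 0.15, 0.04 and -0.02. When a smooth trend on length was removed from each of the 20 libraries, the median class difference was 0.17 for complex I, 0.20 for complexes II to V and 0.22 for the ribosome. The counts at an unadjusted p under 0.05 were then 16, 17 and 30 positive and 4, 2 and 0 negative (4.55% and 4.77% of all genes). This alternative was chosen after the data were seen, and 0 genes passed an adjusted p in it. Length here covers all annotated exons of a gene and can exceed the length of its messenger RNA. Whether the lists differed from other genes of like messenger RNA length was not tested.

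**Figure D5:**
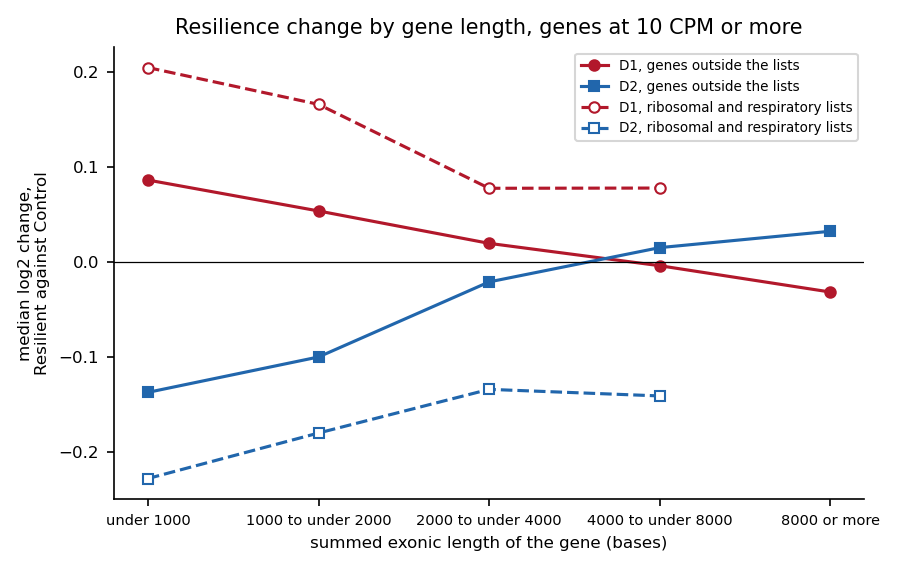
Median log2 change from Control to Resilient (y axis) for genes grouped by summed exonic length in bases (x axis), in D1 (circles) and D2 (squares); solid lines are genes outside the ribosomal and respiratory lists and broken lines are members of those lists, drawn where a group held at least 10. Outside the lists the D1 median went from 0.09 in the shortest group to -0.03 in the longest and the D2 median from -0.14 to 0.03.

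How many genes passed depended on the fit. The 30-library fit also estimated the spread from 3 Susceptible libraries with unusual values. In D1 Susceptible replicate 1, 53.3% of counts were assigned to no gene, and Gm42418 took 54.9% of gene counts. D2 Susceptible replicates 1 and 2 held 15822 and 16525 genes with a count. The fit without these 3 libraries called 1 gene. When the model held only the 20 libraries of the contrast, the spread was estimated without the Susceptible libraries, and edgeR called 12 of 18633 genes (0.0644%), 10 positive (0.0537%) and 2 negative (0.0107%), at adjusted p of 0.0428 to 0.0461. The positive ones were Atp5k, Atp5l, Cox7c, Rps29, Rps28, Timm17b, Pdzd4, Jakmip1 and the pseudogenes Gm12254 and Rpl36a-ps2, and the negative ones Pcdh20 and Clk1. Of the 12, 11 were also among the 160 genes (0.826%) that limma voom called, which were 119 positive (0.614%) and 41 negative (0.212%), all 160 with opposite signs. The voom calls held 12 genes of the cytosolic ribosome and 16 of the respiratory chain. Leaving out 1 of the 20 libraries gave 0 calls for 15 of them, and 5, 2, 31, 11 and 32 calls without D1 Control replicate 1, D1 Control replicate 5, D2 Control replicate 1, D2 Control replicate 5 and D2 Resilient replicate 3. Rps29 had a class difference of 1.10 (SE 0.19) with the 20 libraries and 1.10 with all 30, and Clk1 -0.65 (SE 0.12) and -0.66.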

How the data were processed

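RNA bound to HA-tagged polyribosomes was sequenced from SMART-Seq v4 libraries, per the labels' protocols. The authors deposited raw counts per gene for 30 libraries. The submitters' processing notes list HISAT2, HTSeq, GRCm38 and mm10 without roles or versions, and the strand setting is not given in the sources used here. The 5 summary lines that name no gene held 10.1% to 13.0% of each of the 20 libraries and were left out. Symbols came from GENCODE M21, which matched 55154 of 55335 identifiers.

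Genes were filtered with filterByExpr (minimum count 10, minimum total 15). The class difference was tested with edgeR 4.0.16 (R 4.3.3; TMM, robust quasi-likelihood fit, Benjamini-Hochberg adjustment over all genes tested) in a model of 6 groups and all 30 libraries. Scores were mean log2(CPM + 1) over a list. Alternatives were DESeq2 1.42.0, DESeq2 size factors in edgeR, no filter, the 20 libraries alone, a replicate block, limma 3.58.1 voom with quality weights, 1 surrogate variable (sva 3.50.0) and leaving out each of the 20 libraries. Alternatives added after the data were seen left out 3 Susceptible libraries, left out 4 libraries that stood apart, left out 1 library from the 20 alone, or removed a trend on exonic length (lowess span 0.3). The 3 Susceptible libraries were D1 replicate 1 and D2 replicates 1 and 2. The script was tested on simulated data.

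Genes were named if they were among the 12 smallest p of each opposite direction (unique symbol, not a pseudogene or a predicted name, mean of at least 2 CPM), were called by edgeR or DESeq2, were among the 4 smallest p under 0.05 of a list, or checked the class labels. The members and lists were chosen with earlier results of these data known. Upper limits for 0 counts used 3 counts and cover counting error only. Start windows came from RefSeq (GRCm38.p6), and the run was sought on the coding strand only. Some genes are not reported here.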

Additional observations from a re-analysis of the deposited data

Results flagged for a closer look

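Values that stood far from the other 4 libraries of their group were sought in 424 groups of 5 values, and 48 were found where the gap to the nearest library exceeded 0.71 of the group's range. Chance alone gives this in about 1 in 20 groups. D1 Control replicate 1 held 11 of the 48, D2 Control replicate 4 held 7, D1 Resilient replicate 5 and D2 Resilient replicate 5 held 6 each and D1 Control replicate 5 held 5.

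Levels of single genes are in CPM, with the end of the group at which the library lay. For D1 Control replicate 1 the genes were Mal at 43 (highest), Aqp4 at 12.2 (highest), Gfap at 13 (highest), Gja1 at 36.3 (highest), Slc1a3 at 63.1 (highest) and Actb at 2349 (lowest). D1 Control replicate 2 held Mrpl43 at 51.1 (highest). D1 Control replicate 3 held Snrnp40 at 5.92 (highest). D1 Control replicate 5 stood out for Psmd10 at 26.5 (highest), Chd9 at 67 (lowest), Rpl36a-ps2 at 13.4 (highest), Polr2m at 139 (highest) and Zfp433 at 0.801 (highest). D1 Resilient replicate 1 held Ndufs6 at 61.8 (lowest). D1 Resilient replicate 2 held Jund at 152 (highest). D1 Resilient replicate 3 held Folr1 at 0.103 (highest). D1 Resilient replicate 5 stood out for Ndufa3 at 101 (highest), Cox6b1 at 265 (highest), Cox5b at 305 (highest) and Mrpl43 at 61.7 (highest). D2 Control replicate 1 held Atp5k at 69.6 (lowest). D2 Control replicate 3 stood out for Slc30a1 at 65.6 (highest), Aqp4 at 6.84 (lowest) and Folr1 at 0.0364 (highest). For D2 Control replicate 4 the genes were Mt1 at 101 (highest), Rapgef4 at 94.5 (lowest), Arhgap21 at 59.7 (lowest), Jakmip1 at 43.3 (highest) and Gm12254 at 13.7 (highest). D2 Control replicate 5 stood out for Pkp1 at 0.1004 (highest) and Hmgcs1 at 254 (highest). D2 Resilient replicate 1 held Itgav at 106 (highest). D2 Resilient replicate 5 stood out for Aqp4 at 3.16 (lowest), Gfap at 5.27 (lowest) and Gja1 at 14.1 (lowest).

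Gene list scores, as mean log2(CPM + 1), also stood out in some libraries. In D1 Control replicate 1 they were oligodendrocyte at 5.67 (highest), astrocyte at 4.90 (highest), microglia at 2.99 (highest), translation factors at 7.16 (lowest) and synaptic vesicle at 7.98 (lowest). In D1 Resilient replicate 5 they were respiratory complex I at 6.94 (highest) and mitochondrial ribosome at 5.30 (highest). In D2 Control replicate 4 they were proteasome at 6.78 (lowest) and ionotropic glutamate receptors at 6.23 (lowest). D2 Resilient replicate 2 had mitochondrially encoded at 5.88 (lowest). In D2 Resilient replicate 5 they were oligodendrocyte at 4.28 (lowest), astrocyte at 3.81 (lowest) and endothelial at 3.10 (lowest).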

How the results depend on the processing

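Direction held for most values and the number of genes called did not. For the class difference, where edgeR called 0 genes, DESeq2 called 7, the 20 libraries alone 12, voom 160 and the fit without 3 Susceptible libraries 1, while leaving out single libraries from the 30 gave 0 to 0 and from the 20 alone 0 to 32. For D1 alone the counts were 1 with DESeq2, 5 with the 20 libraries, 180 with voom and 4 with the length trend removed, and 0 to 7 on leaving out 1 of the 20. For D2 alone they were 5 with DESeq2 and 2 with voom, and 0 to 1 on leaving out single libraries in either fit. The 51 genes of opposite sign at an unadjusted p under 0.05 in both classes became 111 without the filter, 138 with the 20 libraries, 328 with voom, 97 with 1 surrogate variable, 125 without 3 Susceptible libraries, 85 with the length trend removed and 20 without the 4 libraries that stood apart. Leaving out single libraries gave 26 to 73, and 89 to 194 with the 20 alone. The median class difference of complex I was 0.19 under voom, 0.17 with the length trend removed and 0.17 without the 4 libraries, and 0.23 to 0.35 (0.22 to 0.35 with the 20 alone) on leaving out single libraries. For complexes II to V it was 0.23, 0.20 and 0.24, and 0.25 to 0.37 (0.25 to 0.36). The mitochondrially encoded median turned to 0.42 under voom, the glucocorticoid target median to -8.4e-05 without the 4 libraries, and Pkp1 to -0.73 under voom and, on leaving out single libraries, lay between -0.087 or -0.089 (without D2 Control replicate 5, in both fits) and 3.65. Medians near 0, those of the endothelial, ionotropic glutamate receptor, proteasome and translation factor lists, took either sign across these alternatives. The causes were not tested.

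The data did not show that replicate numbers pair libraries. Over 10 pairs with the same number within a class, the correlation of deviations was -0.29 to 0.24, and 1 pair exceeded 0.1. These 10 values do not cover pairs across D1 and D2 and cannot exclude a shared batch. With the replicate number as a block 0 genes were called and 39 had opposite signs at an unadjusted p under 0.05 in both classes. A count of 0 allowed up to 0.0455 to 0.0741 CPM, which limits what can be said of Pkp1, Btc, Zfp433, Fam25c and Gm43148.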
